A study of Mus musculus with 4 samples.

Results

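The genes described here are the cytokines of the interleukin-6 (IL-6) family and their receptor subunits, taken by gene symbol from a list of 9 names. Of these, 8 had a row among the 24169 genes of the deposited table: the ligands Il6, Il11, Lif, Clcf1 and Cntf, and the receptor subunits Il6ra, Il6st and Lifr. The level of the receptor subunit Osmr was not analysed here, and only its promoter window was searched. RNA came from C8-D1A cells, an established mouse line labelled as astrocyte. There were 2 untreated libraries (control) and 2 libraries of cells given 1 mM MBP for 24 h. The labels write the treatment only as MBP and do not spell it out. The series title concerns DBP, dibutyl phthalate, a plasticizer that the body turns into monobutyl phthalate, and it places IL-6 between NF-κB and JAK2/STAT3. MBP in the text below is the treatment and not the gene Mbp. All 4 libraries came from 1 line in culture, and the labels do not say that libraries of a group were separate cultures, so p-values measure a spread that may be technical.

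The cytokines described here signal through the shared receptor chain gp130, which Il6st encodes. IL-6 and IL-11 first bind their own alpha chains (Il6ra, Il11ra1) and then bring pairs of gp130 together. LIF joins gp130 to the LIF receptor (Lifr). CNTF and cardiotrophin-like cytokine (Clcf1) use the CNTF receptor alpha chain (Cntfr) with gp130 and the LIF receptor. The receptors activate JAK kinases and the transcription factor STAT3, whose target Socs3 shuts the receptor off. In the nervous system these cytokines are known for driving astrocyte differentiation and the reactive state that follows injury, and LIF and CNTF also support neurons and oligodendrocytes.

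Promoter sequences are shown first because the title places Il6 downstream of NF-κB. The 250 bases before each RefSeq transcription start (GRCm38.p6) were searched on both strands for 6 motifs. These were AP-1 (TGANTCA), C/EBP (TTGCNNAA), STAT (TTCNNNGAA), CRE (TGACGTCA), the TATA box (TATAAA) and the NF-κB consensus. RefSeq windows matched 4 of the 5 ligand genes and all 4 receptor genes (Osmr with them), with 5 starts in each class, and Clcf1 had no entry. Every one of the 4 ligand genes held an AP-1 match, and the windows of those 4 receptor genes held a match to 0 of the 6 motifs. Among the further receptor genes, 1 of the 6 windows of Cntfr held an NF-κB match (GGGGAGCCCC), and the 2 windows of Il11ra1 held none. Of 32851 windows of this length, 6.75% held AP-1, 7.25% NF-κB, 9.56% C/EBP, 7.02% STAT, 1.55% CRE and 12.4% TATA. The share with none of the 6 was not computed. GC content ran from 50.8% to 82.4% in the windows of the 4 receptor genes and from 35.6% to 64.8% in those of the ligands. A difference between the classes was not tested. The ligand windows with a match follow 5′ to 3′ on the gene's strand, matches in capitals, the last base being the one before the start.

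Il6 (chr5:30012864-30013113, plus strand): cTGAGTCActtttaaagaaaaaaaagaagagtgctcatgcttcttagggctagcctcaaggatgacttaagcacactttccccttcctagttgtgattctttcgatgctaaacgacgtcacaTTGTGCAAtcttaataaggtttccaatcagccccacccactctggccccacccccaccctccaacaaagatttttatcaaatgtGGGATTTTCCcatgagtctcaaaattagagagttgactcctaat
Lif (chr11:4257318-4257567, plus strand): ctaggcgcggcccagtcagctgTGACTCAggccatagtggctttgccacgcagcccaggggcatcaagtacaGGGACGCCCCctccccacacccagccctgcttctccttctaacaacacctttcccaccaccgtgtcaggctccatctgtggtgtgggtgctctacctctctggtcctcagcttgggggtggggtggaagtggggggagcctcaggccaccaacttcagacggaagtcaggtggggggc
Il11, inner start (chr7:4778142-4778391, minus strand): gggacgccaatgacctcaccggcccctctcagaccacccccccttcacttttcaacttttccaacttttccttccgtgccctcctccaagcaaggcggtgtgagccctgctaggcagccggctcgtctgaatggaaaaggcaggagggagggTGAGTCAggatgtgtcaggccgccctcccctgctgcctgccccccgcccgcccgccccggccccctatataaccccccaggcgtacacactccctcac
Cntf (chr19:12765633-12765882, minus strand): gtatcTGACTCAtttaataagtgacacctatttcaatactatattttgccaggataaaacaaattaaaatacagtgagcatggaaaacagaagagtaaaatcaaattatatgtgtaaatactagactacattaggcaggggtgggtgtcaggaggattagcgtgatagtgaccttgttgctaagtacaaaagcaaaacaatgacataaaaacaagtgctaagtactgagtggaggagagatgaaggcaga

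In the Il6 window the NF-κB match GGGATTTTCC lay 44 to 35 bases before the start, the C/EBP match TTGTGCAA (on the other strand) at 128 to 121 and the AP-1 match at 249 to 243. Lif held an NF-κB match, GGGACGCCCC, at 178 to 169 and an AP-1 match at 228 to 222. In Il11 the AP-1 match lay 98 to 92 bases before the inner start, and the window of the outer start held none of the motifs. The AP-1 match of Cntf lay at 245 to 239. No match overlapped another. The matched letters are a description of sequence. Binding was not measured in these data.

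The libraries held 23571000 to 25907000 reads, recovered from the FPKM values. Against the astrocyte label, 7 of 10 astrocyte markers lay under 1 FPKM in every library, among them Gfap, Slc1a3, Aldh1l1 and Aqp4, while S100b, Sox9 and Glul lay above it. Summed markers of the oligodendrocyte lineage ran from 118.8 to 123.3 FPKM in the controls and from 108.6 to 108.9 in MBP, over 7 of 8 markers. Sums over neuron markers ran from 32.6 to 35.4 and from 25.6 to 26.0, over 5 of 6 markers, with Snap25, Syt1 and Stmn2 near 0. Astrocyte, endothelial and microglial sums ran from 21.8 to 22.99, from 5.62 to 6.25 and from 6.04 to 6.43 in the controls, over 10 of 10, 5 of 5 and 5 of 8 markers. In MBP they ran from 22.2 to 22.8, from 6.16 to 6.23 and from 5.10 to 5.71. Single genes made up most of several sums: Tmem119 the microglial, Flt1 the endothelial, Tubb3 the neuronal and Sox10 the oligodendrocyte one. Of the other microglial and endothelial markers measured, 4 of each lay under 1 FPKM in every library. Endothelial Cldn5 was at 0 in all libraries. Fibroblast and pericyte sums were 8.64 to 9.27 in the controls and 8.02 to 8.39 in MBP, over 5 of 6 markers and with Dcn near 0. Most of these sums came from Pdgfrb, at 5.98 to 7.11 FPKM, while Col1a1 and Col1a2 lay under 1 FPKM in every library. So did Mag and Pdgfra of the oligodendrocyte lineage. The part of these markers in the values that follow was not tested.

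The members spanned a range of levels from near silence to well expressed, in FPKM (fragments per length of gene and depth of library, so that genes can be compared per length). Clcf1 and Il6st stood highest, and Il6, the cytokine of the series title, stood lowest. Averaged over the 4 libraries the order was Clcf1 24.1, Il6st 23.2, Il11 5.87, Il6ra 4.43, Lif 4.33, Lifr 2.18, Cntf 0.777 and Il6 0.196 FPKM. In this order the 4 values of Clcf1 overlapped those of Il6st, and those of Il6ra overlapped those of Lif. All other neighbours were separated in all 4 libraries. In the controls Clcf1 ranked 2092nd and Il6st 2096th of the 24169 genes, while Il6 ranked 15903rd.

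**Figure D1:**
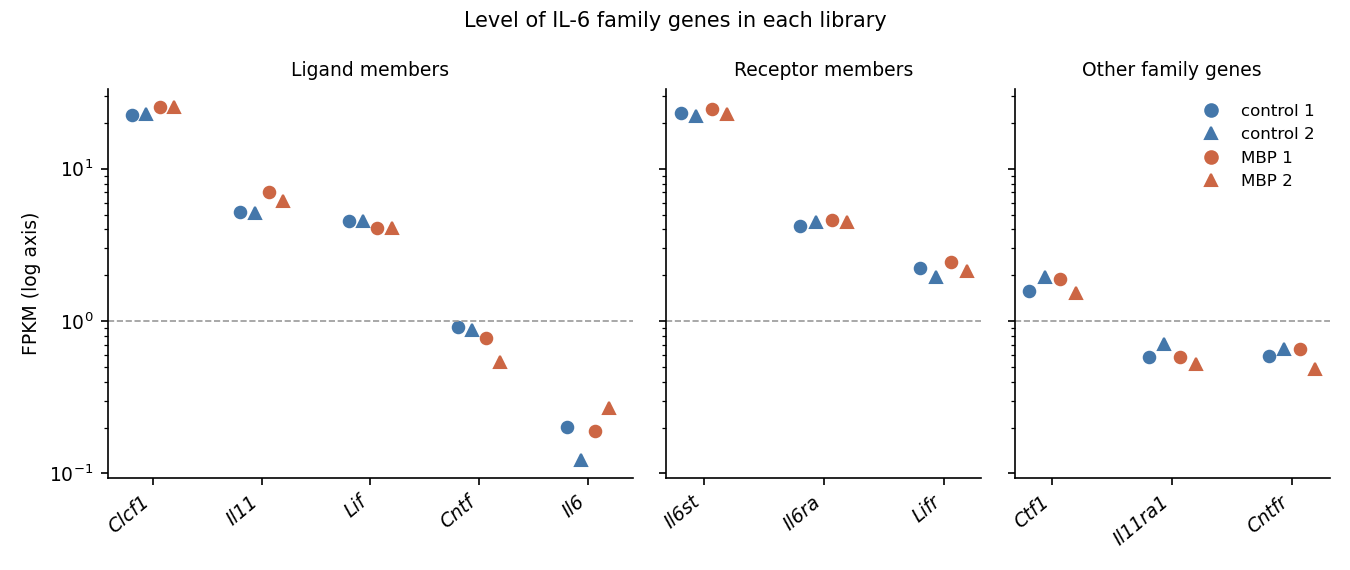
Level of the 8 members and of Ctf1, Il11ra1 and Cntfr in each library, in FPKM on a log axis. Circles are library 1 and triangles library 2 of each group, blue for control and red for MBP, and the dashed line marks 1 FPKM, the level used for the test. Clcf1 and Il6st lie above 20 FPKM and Il6 under 0.3 FPKM in all 4 libraries.

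Of the 5 ligands, Il11 and Clcf1 had higher values in both MBP libraries than in both controls. Lif and Cntf had lower values in both, and Il6 overlapped between groups. All 3 receptor subunits overlapped between groups. No member passed limma's moderated test of log2(FPKM + 1), which covered the 12403 genes with at least 1 FPKM in at least 2 libraries, and 6 of the 8 members with them. At an adjusted p under 0.05 the test called 0% of the tested genes. On reads recovered from the FPKM, limma-voom called 15 of 14518 tested genes, none of them a member. At an unadjusted p under 0.05 limma's moderated test gave 1201 genes, 9.68% of those tested, and among the members Il11 and Clcf1. Groups failed to overlap in 44.8% of tested genes, 21.3% higher and 23.5% lower in MBP, so the separation seen for 3 of the 6 tested members is close to that background. In bulk RNA, fewer cells with a transcript and less of it per cell cannot be told apart.

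Il11, a cytokine known for its roles in bone, in the uterus and in tissue fibrosis (ENSMUSG00000004371, chromosome 7, 4772373 to 4782857, minus strand, GRCm38), had 5.21 and 5.14 FPKM untreated and 6.99 and 6.12 with MBP. Both MBP libraries stood above both controls, and the MBP libraries differed more from each other than the controls did. The difference of log2(FPKM + 1), MBP minus control, was 0.29 (95% interval 0.08 to 0.49, SE 0.080, limma adjusted p = 0.503, unadjusted p = 0.0154). Of the tested genes 92.8% had a smaller difference in size. Without MBP 1 the difference of Il11 was 0.21, and without MBP 2 it was 0.37.

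Clcf1 encodes the ligand with the highest level here (ENSMUSG00000040663, chromosome 19, 4214238 to 4223490). Its FPKM was 22.4 and 22.8 untreated and 25.5 and 25.6 with MBP. The 2 libraries of each group lay close together, and the groups did not overlap. The difference was 0.17 on the log2 scale (95% interval 0.04 to 0.30, SE 0.050, limma adjusted p = 0.503, unadjusted p = 0.0211), from 22.6 ± 0.297 to 25.5 ± 0.0452 FPKM (SD, n = 2 each). A read-through gene model, AC109138.7, lies on the same strand over Clcf1. The sources used here do not state how reads of overlapping genes were counted, so this level is uncertain.

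Lif, which keeps mouse embryonic stem cells undifferentiated and signals to glia (ENSMUSG00000034394, chromosome 11, 4257557 to 4272514), had values in the other direction. It had 4.56 and 4.53 FPKM untreated and 4.11 in each library with MBP. Both MBP libraries lay below both controls with a difference of -0.12 on the log2 scale (95% interval -0.29 to 0.05, limma adjusted p = 0.580). The interval includes 0.

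Cntf, a survival factor for motor neurons that astrocytes are known to make (ENSMUSG00000079415, chromosome 19, 12763660 to 12765632, minus strand), lay under the filter and was not in the main test. It had 0.919 and 0.870 FPKM untreated and 0.778 and 0.540 with MBP, from 24, 22, 20 and 15 reads. Both MBP values were below both controls. Per unit of depth the MBP reads were 0.731 times the control reads, with an exact 95% counting interval of 0.457 to 1.16 that includes 1. The whole Cntf gene lies within Zfp91 on the same strand, which stood at 47.4 to 49.5 FPKM in the 4 libraries. How reads of Zfp91 entered the value of Cntf is not known.

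Il6, the acute-phase and inflammatory cytokine of the family (ENSMUSG00000025746, chromosome 5, 30013114 to 30019981), had 0.203 and 0.122 FPKM untreated and 0.189 and 0.270 with MBP, from 12, 7, 11 and 17 reads. The groups overlapped, since MBP 1 lay below control 1. Pooled by group this was 19 control and 28 MBP reads, a ratio per depth of 1.42 with a counting interval of 0.763 to 2.68. No difference was detected at this depth. Counting intervals cover counting error only. With no filter, limma gave Il6 a log2 difference of 0.08 (95% interval -0.11 to 0.27, adjusted p = 0.728) and Cntf one of -0.20 (-0.51 to 0.12, adjusted p = 0.700).

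**Figure D2:**
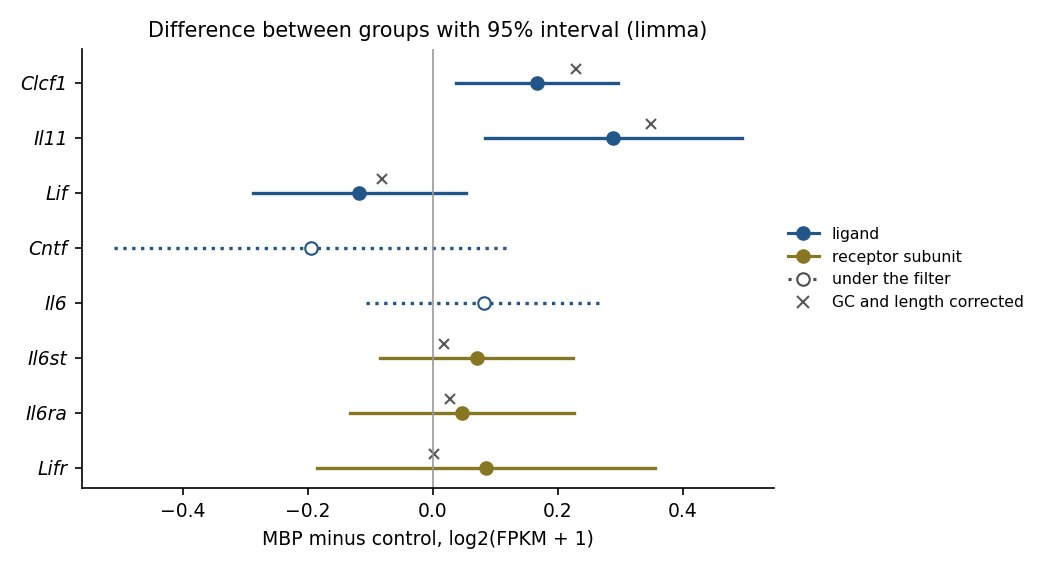
Difference between groups, MBP minus control, on the log2(FPKM + 1) scale, with limma's 95% interval. Filled points entered the main test, open points with dotted intervals come from the fit without a filter, and crosses are the values after correction for GC content and length. The intervals of Clcf1 and Il11 lie above 0 and the other 6 include it.

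Among the receptor subunits the highest library stood at 1.09 times the lowest for Il6ra, 1.11 for Il6st and 1.25 for Lifr. For the ligands this was 1.11 for Lif, 1.14 for Clcf1, 1.36 for Il11, 1.70 for Cntf and 2.21 for Il6. Il6st, the gp130 gene (ENSMUSG00000021756, chromosome 13, 112464070 to 112510086), had 23.1 and 22.1 FPKM untreated and 24.5 and 23.04 with MBP. Control 1 lay above MBP 2, so the groups overlapped. The difference was 0.07 on the log2 scale (95% interval -0.08 to 0.22, limma adjusted p = 0.686). Il6ra, the alpha chain that binds IL-6 (ENSMUSG00000027947, chromosome 3, 89864059 to 89913196, minus strand), had 4.22 and 4.46 FPKM untreated and 4.59 and 4.44 with MBP, a difference of 0.05 (-0.13 to 0.23, adjusted p = 0.823). The gene overlaps the antisense gene Gm42809, which stood at or under 0.447 FPKM. Lifr, the chain that binds LIF (ENSMUSG00000054263, chromosome 15, 7129559 to 7197489) had 2.24 and 1.94 FPKM untreated and 2.43 and 2.13 with MBP, a difference of 0.08 (-0.18 to 0.35, adjusted p = 0.778). For each of these 3 genes the lower control lay below both MBP values and the higher control above 1 of them.

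Ligands and receptor subunits were then set side by side. Over all 5 ligands, tested or not, the log2 differences ran from -0.20 to 0.29 with a median of 0.08, 3 positive and 2 negative. That median is the value of Il6, which lay under the filter. Over the 3 receptor subunits they ran from 0.05 to 0.08 with a median of 0.07, all positive. The median over all tested genes was -0.005. The medians of the 2 classes thus differed by 0.01. For scale, each gene was centred on its mean over all libraries, and the ligand median minus the receptor median was taken in each library. The pooled SD of that quantity between libraries of a group was 0.072. Over the 3 tested ligands alone the median was 0.17, beside 0.07 for the receptor subunits. After correction for GC content and length these 2 medians were 0.23 and 0.02. With a pseudocount of 0.1 in place of 1 the median of all 5 ligands was 0.17 and the difference between classes 0.10. Without MBP 2 the difference was -0.081, and without MBP 1 it was 0.10. The classes differed in range, with the 5 ligand values in both directions and the 3 receptor values from 0.05 to 0.08. The lowest ligand value was that of Cntf, which lay under the filter. Without control 1 the receptor band was wider, with Il6ra at 0.01, Il6st at 0.10 and Lifr at 0.16. A difference in range was not tested, since members chosen with earlier results known give no p for a class.

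Ratios of levels within a library do not depend on library depth. Il6ra stood at 0.183 and 0.202 of Il6st untreated and at 0.187 and 0.193 with MBP. Lifr stood at 0.0970 and 0.0876 of Il6st untreated and 0.0989 and 0.0923 with MBP. Both ratios overlapped between groups, and gp130 transcript was at least 4.96 times that of Il6ra and at least 10.1 times that of Lifr in every library. Among ligands, Clcf1 was 4.92 and 5.05 times Lif untreated and 6.21 and 6.22 times with MBP. The ratio of Il11 to Lif was 1.14 untreated and 1.70 and 1.49 with MBP. These ligand ratios did not overlap between groups. That follows from the higher Clcf1 and Il11 and the lower Lif of the single genes, so the ratios add no separate evidence. Clcf1 was 4.31 and 4.44 times Il11 untreated and 3.65 and 4.18 times with MBP. The ratio of Clcf1 to Il6 overlapped between groups.

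**Figure D3:**
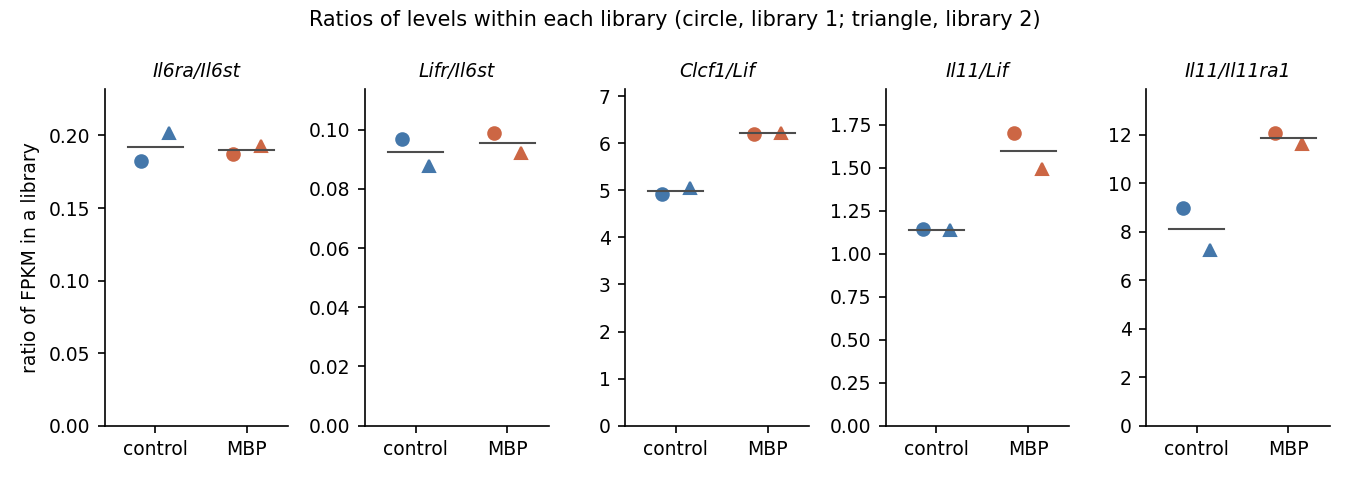
Ratio of the FPKM of 2 genes within each library, with each axis starting at 0 and bars at the group means. Il6ra/Il6st and Lifr/Il6st overlap between control (blue) and MBP (red), and the other 3 ratios do not. In those 3 the upper gene, Clcf1 or Il11, was itself higher in both MBP libraries, and Il11ra1 lay under the filter.

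The remaining family genes include the partner chains of these ligands. Of 12 further family genes 8 had a row and 2 entered the test, and 0 of these 2 passed it. Ctf1, cardiotrophin-1, had 1.58, 1.95, 1.88 and 1.52 FPKM in control 1, control 2, MBP 1 and MBP 2, with overlapping groups (adjusted p = 0.942).

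The alpha chains for IL-11 and CNTF were scarce. Il11ra1 had 0.579 and 0.712 FPKM untreated and 0.579 and 0.527 with MBP, and Cntfr had 0.591 and 0.656 untreated and 0.660 and 0.486 with MBP. Both overlapped between groups and lay under the filter. Il11 was thus 8.99 and 7.23 times its alpha chain untreated and 12.1 and 11.6 times with MBP, and Il6st was at least 31.1 times Il11ra1 and at least 33.7 times Cntfr in every library. Osm, the ligand encoded next to Lif, had 1 read in MBP 1 and 0 elsewhere, and Il27 had 0 in all 4. Il31ra had 1 read in control 2 only, and Il27ra had 1 and 3 reads untreated and 3 and 0 with MBP. At such counts no comparison was possible.

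Downstream genes were counted by lists. Of the kinases, STATs and adaptors 11 of 12 were tested and 0 passed, with a median log2 difference of -0.02. Jak2, the kinase named in the title, had 7.17 and 6.71 FPKM untreated and 7.59 and 7.64 with MBP (limma adjusted p = 0.568). Stat3, given here because the title names it, stood at -0.06 (adjusted p = 0.737). The adaptor Gab1 stood at 0.15 and the adaptor Grb2 at -0.14 on the log2 scale, and their groups did not overlap. In this list 3 tested genes lay higher and 2 lower without overlap, beside 21.3% and 23.5% of all tested genes. Of the feedback and inhibitor genes 7 of 10 were tested and 0 passed, with a median of -0.08, or -0.04 adjusted for GC content and length. Of the 7 tested, 2 lay higher and 3 lower without overlap, beside 21.3% and 23.5% of all tested genes. Socs1 had 5.32 and 5.56 FPKM untreated and 3.70 and 3.51 with MBP, groups that did not overlap. Its log2 difference was -0.48 (limma adjusted p = 0.433), and its limma-voom adjusted p was 0.064. Socs3 stood at -0.17, the phosphatase Ptpn2 at 0.14 and the phosphatase Ptpn1 at -0.10. Socs3, the feedback gene most tied to gp130, had 7.06 and 8.47 FPKM untreated and 7.13 and 6.46 with MBP, with overlapping groups.

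Of 21 STAT3 targets 20 had a row, 15 were tested and 0 passed, with a median of -0.07 and 8 of the 15 negative. Adjusted for GC content and length the median was 0.02, so its sign turned. Groups did not overlap in 2 targets with higher and 7 with lower values, beside 21.3% and 23.5% of all tested genes. The 4 with an unadjusted p under 0.05 were all lower in value, as were 728 of the 1201 such genes among all those tested. Cebpd, a transcription factor of the acute-phase response, had 2.17 and 2.48 FPKM untreated and 1.06 and 1.22 with MBP (log2 difference -0.64, limma adjusted p = 0.457). Its relative Cebpb had 2.62 and 3.19 FPKM untreated and 1.89 and 1.46 with MBP (adjusted p = 0.493). The interleukin-4 receptor Il4ra stood at -0.24 and the chemokine Ccl2 at -0.29 on the log2 scale. In limma-voom, Cebpd passed with an adjusted p of 0.0190, the 1 call among the 53 listed genes that it tested. Over all genes limma-voom made 15 calls among 14518 tested, and 0 of the 8 members passed.

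Genes that act on the receptors or on Il6 mRNA were counted last. Of the shedding proteases and their partners 3 of 4 were tested and 0 passed, with a median of 0.08, or 0.04 after the same adjustment. Adam10 and Adam17, which cleave the IL-6 receptor from the cell surface, both stood at 0.08 on the log2 scale with groups that did not overlap. Of all tested genes 21.3% were higher in MBP without overlap. Rhbdf1 stood at 0.01. Of 7 regulators of Il6 mRNA stability all 7 were tested and 0 passed, with a median of 0.01, or -0.02 after it. Zc3h12a, the RNase Regnase-1 that degrades Il6 mRNA, had 3.11 FPKM untreated and 2.67 and 2.25 with MBP (log2 difference -0.25, 95% interval -0.49 to -0.01, limma adjusted p = 0.512). Zfp36l1 stood at -0.10, Rc3h1 at 0.08 and Rc3h2 at 0.07.

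**Figure D4:**
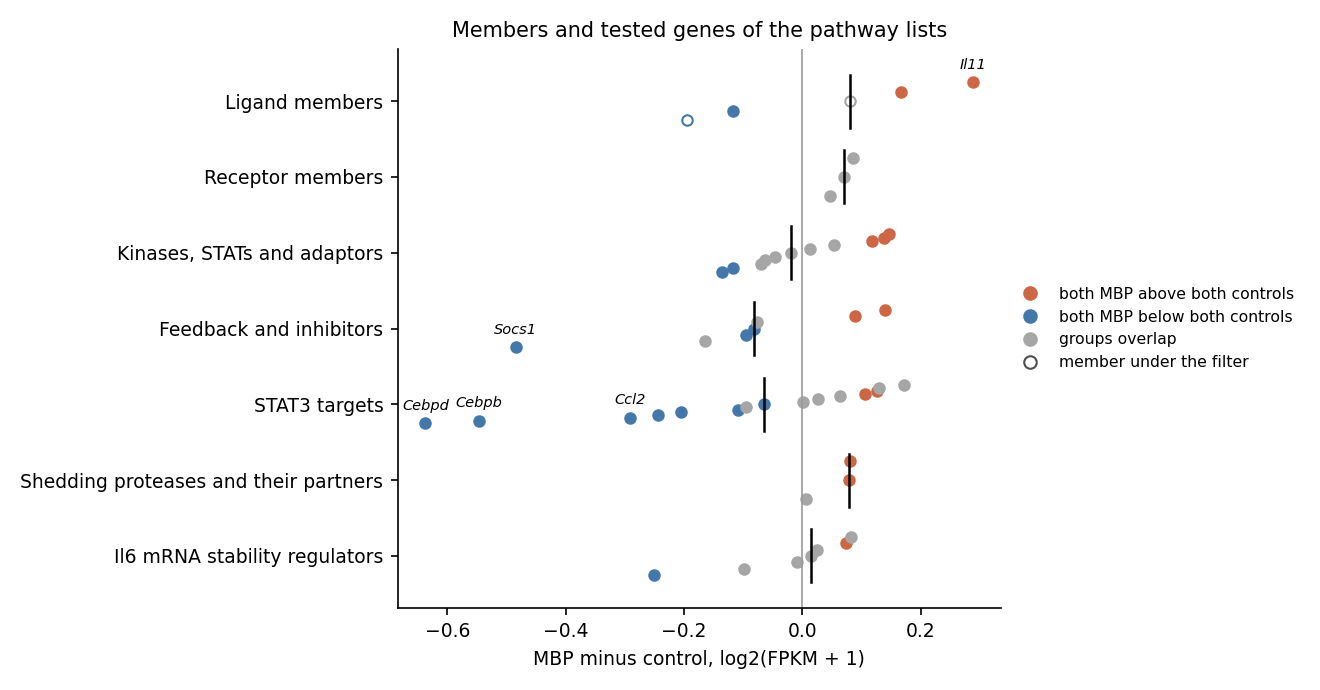
Log2(FPKM + 1) difference, MBP minus control, of the 8 members and of the tested genes of 5 pathway lists, with a black bar at each median. Colour shows whether the 2 MBP libraries lay above (red) or below (blue) both controls or overlapped them (grey), and open circles are members under the filter. Receptor members sit between 0.05 and 0.08, and Cebpd, Cebpb and Socs1 sit lowest.

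The members were also read after adjusting for the GC content and length of each gene. Their longest transcripts had a GC content from 39.3% (Il6) to 56.1% (Clcf1). After the correction Il11 stood at 0.35, Clcf1 at 0.23 and Lif at -0.08 on the log2 scale. Il6ra stood at 0.03, Il6st at 0.02 and Lifr at 0.002. Il6 stood at 0.017 and Cntf at -0.17, although the correction was fitted on genes above the filter only. The 2 ligands with higher values thus kept them, and the 3 receptor subunits came closer to 0.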

How the data were processed

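RNA-seq of total RNA was run on 4 samples. Per the labels' protocols, libraries were made after ribosomal RNA removal with a directional kit. Per the submitters' processing notes, HISAT2 and bcl2fastq were used with GRCm38. Versions and the counting program with its strand setting were not stated there. FPKM per gene is the unit the authors deposited. Columns were joined to samples by title. Replicate numbers follow accession order and pair nothing.

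Values were tested as log2(FPKM + 1), a scale that understates changes of low genes, with limma 3.58.1 in R 4.3.3 (eBayes with a spread trend, two-sided, Benjamini-Hochberg over 12403 genes, threshold 0.05). Reads were recovered from the FPKM steps with GENCODE M21 exon lengths. They came out whole within 0.05 for at least 93.8% of genes, and for all libraries of Il6 and Cntf but not of Il11, Clcf1 and Lifr. Counting intervals are exact, and reads carry no molecular identifiers.

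Members, lists and tests were chosen with earlier results of these data known. All members are named, with the further family genes and, per list, up to 4 tested genes with the lowest p, apart from 2 genes that are not reported here by name. Alternatives changed the pseudocount, filter, scaling, spread model, gene set, composition correction, and libraries, or used limma-voom (mean reads at or above 10). The composition correction was a loess of span 0.5.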

Additional observations from a re-analysis of the deposited data

How the results depend on the processing

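Genes changed by MBP numbered 0 in limma and in 14 of the 15 alternatives. In limma-voom on recovered reads there were 15, of which 14 were lower, and 0 were members. The cause was not tested. Genes with an unadjusted p under 0.05 (473 higher and 728 lower in limma) numbered 601 to 2254 with 1 library left out and 2081 with no filter. They were 533 higher and 507 lower as TPM, and 332 higher and 831 lower among protein-coding genes. Each of the 8 members kept the sign of its difference in all 15 alternatives. Where a member was tested its adjusted p was above 0.05, in 14 or 15 of the alternatives for the members above the filter and in 2 for Il6 and Cntf. Il11 ran from 0.21 to 0.37 and Clcf1 from 0.15 to 0.23, with limma adjusted p from 0.268 to 0.974 and from 0.264 to 0.974. Lif ran from -0.15 to -0.08. Cntf ran from -0.46 to -0.09 and Il6 from 0.017 to 0.49.

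The median of the 5 ligands was 0.17 with a pseudocount of 0.1 or 0.01, 0.17 in limma-voom, 0.19 as TPM (which is larger than FPKM, so that 1 weighs less) and 0.017 after the GC and length correction. That correction was fitted on genes above the filter and is uncertain for Il6 and Cntf. With 1 library left out the ligand median was 0.031 to 0.13. The ligand minus receptor difference was 0.10 with either pseudocount, as TPM and in limma-voom, and -0.081 to 0.10 with 1 library left out, so its sign is not fixed. In all 15 the receptor median moved by less than 0.0534, the pooled SD of the centred receptor medians taken per library. Depth limits Il6 and Cntf, with 7 to 24 reads a library. No paired analysis was possible because the labels pair no samples.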
